A study of Mus musculus with 24 samples.

Results

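Caveolin-1 and caveolin-2, encoded by Cav1 and Cav2, are the 2 genes described here, out of 24273 in the deposited expression table. They were taken by their symbols, 1 row each, and were chosen by their measured values, since both had lower values in FosKO macrophages and Cav1 rose less there after LPS. Therefore the genotype differences of both genes, the difference between genotypes in their LPS changes and every LPS value of Cav1 are given as a description and carry no test. Caveolins are small membrane proteins that insert as a hairpin into the inner face of the plasma membrane and, together with cavin proteins, shape the flask-like pits called caveolae. Caveolin-1 is the main structural member outside muscle, caveolin-2 assembles with it into shared oligomers, and caveolin-3 is the muscle form. Endothelial cells, fibroblasts and adipocytes are the cells best known for abundant caveolae.

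The libraries were made from bone marrow-derived macrophages (BMDMs) of C57BL/6 mice, cultured for 7 days in L-cell conditioned medium. Control cells carried LysM-Cre, a Cre recombinase expressed from the myeloid Lyz2 locus. FosKO cells carried LysM-Cre with both Fos alleles floxed, so deletion was restricted to cells that express the driver. The series' design text calls the controls LysM-Cre, while the study's text adds 1 floxed Fos allele, and which applied cannot be told from the values. Both genotypes therefore carried Cre. Cells of each genotype were untreated (0 h) or received 100 ng/ml LPS, a bacterial ligand of TLR4, for 0.5, 1 or 2 h, with 3 libraries in each of the 8 groups. The labels give neither the age of the mice for these cultures nor whether replicates came from separate mice. The study's methods call the libraries biological replicates without saying of what, so p-values measure the spread between these libraries.

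Values are normalised log2 expression as deposited, so that a difference of 1 is a doubling, and they resemble a regularised log, which pulls genes with few reads towards their mean. Read totals of the libraries are unknown here. The 18S ribosomal RNA value split the libraries into 5 low and 19 high ones. Control replicate 3 at 0.5 h and replicates 2 and 3 at 1 h were low, as was replicate 1 of FosKO at both of these times. Fos itself did not check the labels. Its level was higher in every FosKO library than in every control library at 0, 1 and 2 h, and lower at 0.5 h, and a single value per gene does not separate a deleted part from the rest of the transcript. Fos means were 11.11, 13.52, 11.15 and 9.52 in LysM-Cre cells at 0, 0.5, 1 and 2 h and lay between 12.60 and 12.80 in FosKO cells. In bulk libraries, fewer cells of a type and less RNA per cell cannot be told apart.

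Cav2 and Cav1 lie head to tail on the plus strand of mouse chromosome 6, Cav2 first. On the GRCm38 build, Cav2 (ENSMUSG00000000058) spans chr6:17281185-17289115 and Cav1 (ENSMUSG00000007655) spans chr6:17306335-17341452. The end of Cav2 and the start of Cav1 are 17219 bp apart, and their first bases are 25150 bp apart. The 250 bases before the annotated start of each gene are shown because Fos forms part of AP-1, a transcription factor that binds the letters TGANTCA. They come from RefSeq on GRCm38.p6, plus strand, chr6:17280935-17281184 for Cav2 and chr6:17306085-17306334 for Cav1, with motif matches in capitals.
Cav2: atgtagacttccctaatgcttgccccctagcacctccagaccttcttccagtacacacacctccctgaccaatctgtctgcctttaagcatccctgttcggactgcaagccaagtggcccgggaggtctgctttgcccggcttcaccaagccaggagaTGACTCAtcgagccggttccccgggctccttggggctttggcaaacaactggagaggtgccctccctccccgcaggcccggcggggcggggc
Cav1: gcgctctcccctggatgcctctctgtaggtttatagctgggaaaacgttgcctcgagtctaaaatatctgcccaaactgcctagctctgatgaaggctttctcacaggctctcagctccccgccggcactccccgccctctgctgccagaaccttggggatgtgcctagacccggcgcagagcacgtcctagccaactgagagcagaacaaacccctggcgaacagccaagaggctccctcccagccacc

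Windows running from 250 bases before to 50 bases after each start were searched on both strands for the AP-1 letters and for those of the CRE (TGACGTCA), the site of CREB and ATF factors. The Cav2 window held 1 match, TGACTCA, at chr6:17281093-17281099, which begins 92 bases before the start. It overlapped no CRE match. The Cav1 window, and a second Cav1 promoter listed by RefSeq at chr6:17307390-17307689, held neither. Among 32851 mouse promoters of the same length, 7.81% held the AP-1 letters and 1.79% the CRE letters. A match is a stretch of letters and not a bound site, and the absence of one from this window says nothing of sites elsewhere.

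In untreated control macrophages Cav1 was low and in FosKO macrophages lower still. At 0 h the control libraries read 6.03, 5.84 and 5.89 for Cav1, and the FosKO libraries 4.96, 4.98 and 4.97. All 3 FosKO libraries lay below all 3 control libraries, with a mean difference of -0.95 (SE 0.09), or 1.93-fold lower. At 0.5 h of LPS the control libraries read 6.17, 5.95 and 6.08 for Cav1 and the FosKO libraries 5.18, 5.15 and 4.90. Neither genotype had moved far from its 0 h values, by 0.15 (95% interval -0.03 to 0.32) in LysM-Cre and by 0.11 (-0.07 to 0.28) in FosKO, and the difference between the genotypes was -0.99 (SE 0.09).

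The larger Cav1 values came at 1 and 2 h. At 1 h the control libraries read 8.09, 8.15 and 8.13 for Cav1, against 6.16, 6.26 and 6.21 in FosKO. The control cells were 4.60-fold above their 0 h level and the FosKO cells 2.35-fold above theirs, so that FosKO lay 3.77-fold below control, a difference of -1.92 (SE 0.09). At 2 h the control libraries read 9.70, 9.80 and 9.71 for Cav1 and the FosKO libraries 7.25, 7.14 and 7.48. Control Cav1 was then 14.1-fold above 0 h and FosKO Cav1 4.98-fold, and the difference between the genotypes reached -2.45 (SE 0.09), or 5.47-fold lower. Cav1 was thus higher after LPS in both genotypes, and the groups did not overlap at any time.

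**Figure D1:**
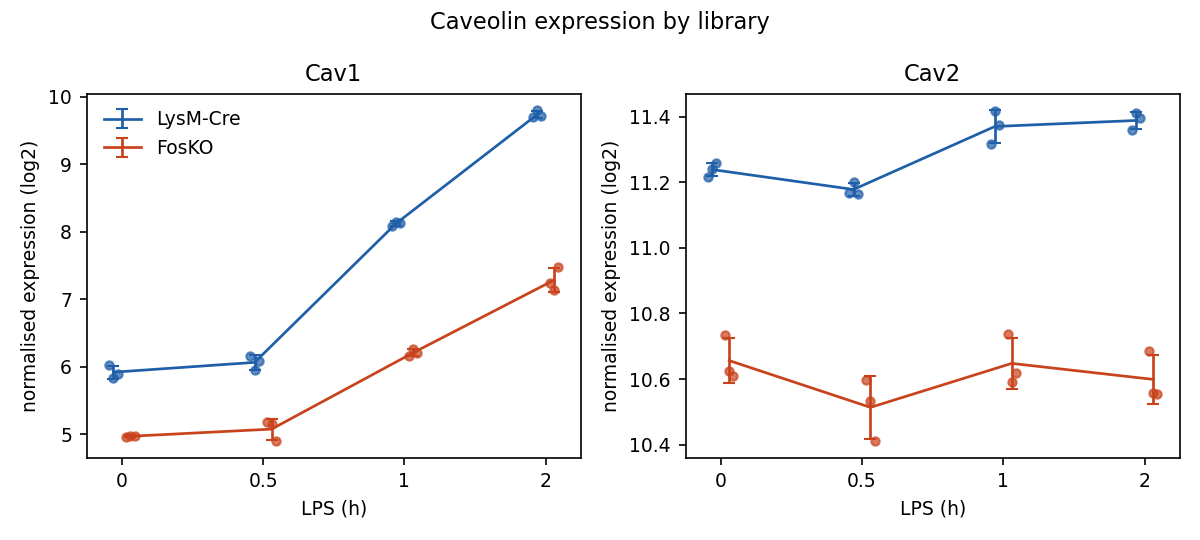
Normalised log2 expression of Cav1 (left) and Cav2 (right) against hours of LPS (the 4 times evenly spaced), in LysM-Cre (blue) and FosKO (red) BMDMs. Points are single libraries (3 per group), lines join group means and bars are SDs, and the vertical axes have different ranges. Control Cav1 climbs from a mean of 5.92 to 9.74 and FosKO Cav1 from 4.97 to 7.29, while Cav2 stays between 11.18 and 11.39 in control and between 10.51 and 10.66 in FosKO means.

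The rise of Cav1 in FosKO cells covered part of that in control cells at each step. Between 0.5 and 1 h Cav1 gained 2.06 in LysM-Cre and 1.13 in FosKO on the log2 scale, and between 1 and 2 h it gained 1.62 and 1.08 (SE 0.09 each). Measured from 0 h, the FosKO gain was 56.1% of the control log2 gain at 1 h and 60.6% at 2 h. The LPS change of Cav1 in FosKO minus that in control was -0.04, -0.97 and -1.50 at 0.5, 1 and 2 h in turn (SE 0.12 each). The 0.5 h value ran from -0.098 to 0.051 when single libraries were left out, and turned positive without control replicate 2 of 0 h or replicate 1 of 0.5 h, or without FosKO replicate 3 of 0.5 h. Ordered from the lowest, the Cav1 group means were FosKO at 0 and 0.5 h (4.97 ± 0.01 and 5.08 ± 0.16, SD, n = 3), LysM-Cre at 0 and 0.5 h (5.92 ± 0.09 and 6.07 ± 0.11), FosKO at 1 and 2 h (6.21 ± 0.05 and 7.29 ± 0.17) and LysM-Cre at 1 and 2 h (8.12 ± 0.03 and 9.74 ± 0.06). The 0 and 0.5 h groups overlapped within each genotype, as did LysM-Cre at 0.5 h with FosKO at 1 h, and the other neighbours in this order did not. After 1 h of LPS, FosKO cells therefore held Cav1 at about the level of control cells with 0.5 h of LPS.

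Cav2 was lower in FosKO by a smaller and steadier amount. At 0 h the control libraries read 11.22, 11.24 and 11.26 for Cav2 and the FosKO libraries 10.73, 10.62 and 10.61. At 0.5 h they read 11.17, 11.20 and 11.17 against 10.60, 10.53 and 10.41. At 1 h they read 11.32, 11.42 and 11.38 against 10.74, 10.59 and 10.62. All 12 control libraries of the series lay above all 12 FosKO libraries, whatever the time.

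At 2 h the control libraries read 11.36, 11.41 and 11.40 for Cav2 and the FosKO libraries 10.69, 10.56 and 10.55. The differences between the genotypes in Cav2 were -0.58, -0.67, -0.72 and -0.79 at 0, 0.5, 1 and 2 h (SE 0.05 each), or 1.50-, 1.59-, 1.65- and 1.73-fold lower. Among 13901 tested genes ordered from the most negative difference, Cav1 ranked 76, 103, 15 and 5 at the 4 times and Cav2 ranked 319, 326, 200 and 157. These ranks describe genes that were chosen for their differences. For reading them, 15.9%, 19.7%, 15.9% and 20.3% of tested genes were called lower in FosKO at 0, 0.5, 1 and 2 h in the same limma fit at an adjusted p under 0.05.

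The LPS changes of Cav2 were not used to choose it and could be tested. In control cells Cav2 rose slightly, by 0.13 at 1 h (SE 0.05, limma adjusted p = 0.0345) and by 0.15 at 2 h (adjusted p = 0.00922), and its value at 0.5 h differed from 0 h by -0.06 (adjusted p = 0.595). Of all tested genes, 7.24%, 35.8% and 60.8% were called at 0.5, 1 and 2 h in control cells. The call at 1 h was lost without any one of the 3 control libraries of 0 h or without replicate 2 or 3 of 1 h, with values of 0.11 to 0.16 over the 6 libraries left out in turn, and in libraries of high 18S content alone the value was 0.08. Under quantile normalisation the control values were -0.11 at 0.5 h and 0.018 at 1 h. The direction at 2 h turned under quantile normalisation, to -0.043 (adjusted p = 0.519), although that scaling moved the median tested gene by only 0.02. The 1569 genes within 0.5 of the mean level of Cav2 moved by a median of -0.18 in that comparison.

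In FosKO cells the Cav2 values at 0.5, 1 and 2 h differed from 0 h by -0.14, -0.01 and -0.06 (SE 0.05 each, limma adjusted p = 0.0840, 0.920 and 0.306), where 5.92%, 32.6% and 62.1% of tested genes were called. The 0.5 h value is not stable to the processing, since it was called with a replicate block within genotype (-0.14, adjusted p = 0.00103), with 18S class as a term (-0.17), under quantile normalisation (-0.19), in high 18S libraries alone (-0.18) and without FosKO replicate 1 of 0.5 h (-0.18). The 2 h value was called under quantile normalisation (-0.24). The LPS change of Cav2 in FosKO minus that in control was -0.08 at 0.5 h, -0.14 at 1 h and -0.21 (SE 0.07) at 2 h. The 0.5 h value ran from -0.12 (without FosKO replicate 1 of 0.5 h) to -0.030 (without FosKO replicate 3 of 0.5 h), and was -0.043 without FosKO replicate 1 of 0 h. This quantity is made of the genotype differences that chose Cav2 and therefore carries no test. From 0.5 h Cav2 took a step up to 1 h in both genotypes, of 0.19 in control (adjusted p = 0.00367) and 0.13 in FosKO (adjusted p = 0.0388), in steps where 26.8% and 27.5% of tested genes were called. Under quantile normalisation the 0.5 and 1 h changes from 0 h were -0.11 and 0.018 in control and -0.19 and -0.10 in FosKO, which makes both steps smaller. These LPS comparisons share their 0 h libraries within a genotype.

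Since LPS moved Cav1 far more than Cav2, the ratio of the 2 transcripts shifted. Levels were compared per kilobase of merged exon, 3444 bases for Cav1 and 3335 for Cav2. Per kilobase, Cav2 exceeded Cav1 by 5.37 ± 0.11 (log2, SD, n = 3) in untreated control cells, or 41.2-fold, and by 1.70 ± 0.04 after 2 h, or 3.24-fold. In FosKO cells the excess of Cav2 was 5.73 ± 0.08 at 0 h, or 53.1-fold, and 3.36 ± 0.20 at 2 h, or 10.3-fold. The ranges of this ratio are a description, since the Cav1 values that chose the genes are part of it. Among tested genes ordered by level per kilobase, Cav1 in control cells moved from the 23.8 percentile at 0 h to the 72.4 percentile at 2 h, and in FosKO cells from 17.2 to 38.2. Cav2 stayed between the 89.6 and 90.3 percentiles in control cells and between 82.4 and 85.2 in FosKO cells.

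**Figure D2:**
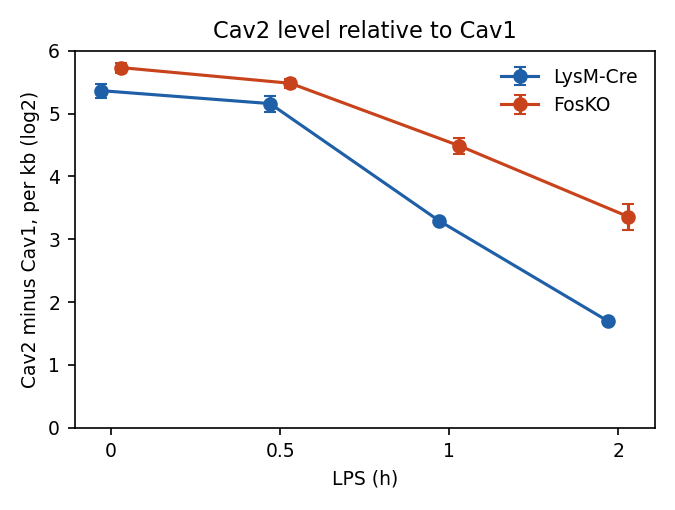
Cav2 minus Cav1 level per kilobase of exon (log2) against hours of LPS (the 4 times evenly spaced), in LysM-Cre (blue) and FosKO (red) BMDMs. Points are means of 3 libraries and bars are SDs. The excess of Cav2 falls from 5.37 to 1.70 in control cells and from 5.73 to 3.36 in FosKO cells.

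Across libraries the 2 caveolins moved together in control cells more than in FosKO cells. Pearson's r between Cav1 and Cav2 was 0.881 over the 12 control libraries and 0.113 over the 12 FosKO libraries, and 0.628 over all 24. After the group means were taken out, r was 0.126, so libraries of 1 group that were high in Cav1 were not clearly high in Cav2. The points share the LPS times and, within a library, the normalisation, and the difference between these correlations was not tested.

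Libraries of the same 18S class gave similar differences. At 0.5 h Cav1 in FosKO minus control was -1.03 within the high class (2 libraries against 2) and -0.90 within the low class (1 against 1). At 1 h it was -1.86 within the high class (2 FosKO against 1 control) and -1.98 within the low class (1 against 2). For Cav2 the same 4 values were -0.71, -0.57, -0.71 and -0.66. At 0 and 2 h all libraries were of the high class.

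The caveola coat and neck needs partners beyond the caveolins. Cavins form the outer coat, with cavin-1 required for caveolae to form, EHD ATPases sit at the neck and restrain the pit, pacsins bend the neck membrane and dynamin-2 cuts membrane necks. A list of 13 such genes without Cav1 and Cav2 was compared, of which 12 were in the table and 8 passed the filter on low values. In limma at an adjusted p under 0.05, FosKO against control, the number of the 8 that were higher was 2, 1, 2 and 2 at 0, 0.5, 1 and 2 h, and the number that were lower was 1, 1, 1 and 2. With single libraries left out, the total called ran from 2 to 3 at 0 and 0.5 h and from 3 to 4 at 2 h. Quantile normalisation raised the total at 0.5 h from 2 to 4. For comparison, 35.4%, 40.9%, 33.9% and 44.6% of all tested genes were called at these times, and 24.4% were called higher at 2 h. The median difference of the 8 genes ran from -0.05 to 0.01, beside 0.00 over all tested genes at each time. The 8 tested genes as a group were therefore near the background, and the large difference among them lay in a single gene.

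That gene was Cavin1, which the table lists under its older symbol Ptrf. At 0 h the control libraries read 6.82, 6.57 and 6.50 for Ptrf and the FosKO libraries 5.49, 4.998 and 5.59. At 0.5 h they read 6.63, 6.44 and 6.58 against 5.42, 5.18 and 5.39. At 1 h they read 6.88, 6.69 and 6.77 against 5.28, 5.37 and 5.38. Every FosKO library lay below every control library of the same time.

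At 2 h Ptrf read 7.91, 7.94 and 7.80 in control libraries and 6.31, 6.05 and 6.36 in FosKO. Ptrf was lower in FosKO by -1.27, -1.22, -1.44 and -1.64 at the 4 times (SE 0.12 each, limma adjusted p = 1.3e-07, 1.34e-07, 2.3e-08 and 2.11e-09), or 2.42-, 2.34-, 2.71- and 3.11-fold. Each of these calls held under all 16 alternatives run on it. Within the high 18S class the 0.5 and 1 h differences of Ptrf were -1.25 and -1.51, and within the low class -1.17 and -1.45. Ptrf also rose at 2 h of LPS, by 1.25 in control (adjusted p = 2.23e-08) and by 0.88 in FosKO (adjusted p = 2.94e-06). Its LPS change at 2 h differed between the genotypes by -0.36 (SE 0.18, adjusted p = 0.189), with a 95% interval of -0.73 to 0.0035, so a smaller rise in FosKO was not called for Ptrf. Unlike Cav1, Ptrf at 1 h was 0.15 above 0 h in control and -0.02 from it in FosKO.

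**Figure D3:**
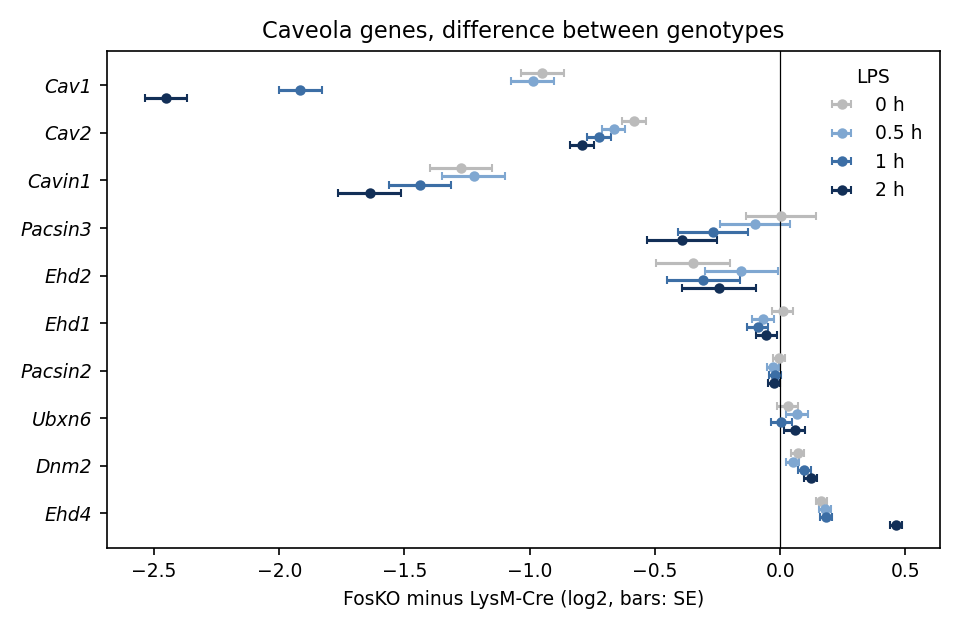
FosKO minus LysM-Cre difference (log2, horizontal axis) for Cav1, Cav2 and the 8 tested genes of the caveola coat and neck list, at 0, 0.5, 1 and 2 h of LPS from light to dark. Points are differences of means of 3 libraries and bars are SEs from the limma fit. Cav1, Cav2 and Cavin1 lie below 0 at all 4 times, with Cav1 at -2.45 and Cavin1 at -1.64 at 2 h, and Ehd4 lies above it.

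The neck genes differed from one another. Ehd4 was higher in FosKO at all 4 times, by 0.16, 0.18, 0.18 and 0.46 (adjusted p from 6.33e-12 to 1.28e-05), and its LPS change at 2 h was 0.30 higher in FosKO (SE 0.03, adjusted p = 2.81e-06), in a comparison where 15.0% of tested genes were called. The genotype calls of Ehd4 held under all 16 alternatives, with values down to 0.098 at 0 h and 0.097 at 0.5 h. Ehd1 rose strongly with LPS in both genotypes, by 2.61 in control and 2.54 in FosKO at 2 h (adjusted p = 5.85e-21 and 7.57e-21). Its genotype difference at 2 h was -0.06 (95% interval -0.14 to 0.03). Pacsin3 was lower in FosKO at 2 h by -0.39 (adjusted p = 0.0281), but leaving out control replicate 1 or 3, or replicate 2 or 3 of FosKO, of that time ended the call, with values of -0.40 to -0.33. Pacsin2 and Ubxn6, whose product binds caveolin-1, differed between genotypes by at most 0.07 in size and were not called. Ehd2, the EHD protein best known at caveolae, had differences of -0.35 to -0.16 that were not called. Its group means were low, from 1.83 to 2.27, where a regularised log would understate differences. Dnm2 was higher in FosKO by 0.07, 0.10 and 0.12 at 0, 1 and 2 h, but the 0 h call was lost without control replicate 2 or 3 or FosKO replicate 3 of that time (0.040 to 0.069) and under 4 other alternatives that kept its value, and quantile normalisation turned the 0 and 2 h values to -0.013 and -0.011 and ended the 1 h call (0.024).

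The rest of the list was at or near the floor of the table, whose lowest value is -2.22. Cavin2 (listed as Sdpr) ran from -1.86 to -1.78 over the 24 libraries and Cavin4 (listed as Murc), the muscle cavin, from -1.64 to -1.51. Cavin3 (listed as Prkcdbp) ran from 0.19 to 0.52 in control libraries and from 0.12 to 0.13 in FosKO libraries. Every FosKO library thus lay below every control library for Cavin3, at a level too low for a test. Pacsin1 ran from 0.04 to 0.40. These 4 genes did not pass the filter and were not tested, and Cav3 was not analysed here.

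Kinases that phosphorylate caveolin-1 and scaffolds of membrane rafts formed a second list of 7 genes, 6 of them tested. At 2 h 2 were higher in FosKO and 1 lower, beside 44.6% called among all tested genes, with a median difference of 0.01 for the list. Src, a kinase that phosphorylates caveolin-1 on tyrosine, was higher in FosKO by 0.57 at 0 h (adjusted p = 3.49e-05) and lower by -0.29 at 2 h (adjusted p = 0.0115). The 2 h difference in Src was lost without FosKO replicate 2, at -0.22. Src rose by 2.91 in control and by 2.05 in FosKO at 2 h, a difference in change of -0.86 (SE 0.12, adjusted p = 6.6e-05). The raft scaffolds Stom and Flot1 were higher in FosKO at 2 h by 0.30 and 0.21 (adjusted p = 3.06e-07 and 8.65e-05), with Stom at 0.13 and still called under quantile normalisation.

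Genes around the pair on chromosome 6 were compared to see how far the pattern of the caveolins extended. Of 8 protein-coding genes within 1 Mb, 5 were in the table and all 5 were tested. Tfec and Tes lie before Cav2, at 382744 and 175357 bp, and Met, Capza2 and St7 lie after Cav1, at 122348, 294782 and 351481 bp. All 5 rose at 2 h of LPS in both genotypes on the deposited values, beside 30.6% of tested genes called higher in control and 32.6% in FosKO. The rise of Capza2, of 0.30 in control and 0.25 in FosKO, turned to -0.033 and -0.19 under quantile normalisation.

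Met, which encodes the receptor of hepatocyte growth factor and is the nearest tested gene after Cav1, was the neighbour whose LPS change differed between the genotypes. At 0 h Met read 6.11, 5.94 and 5.79 in control libraries and 5.79, 6.49 and 6.41 in FosKO, which overlap. At 2 h it read 8.16, 8.16 and 8.17 in control and 7.44, 7.50 and 7.60 in FosKO, which do not. Met rose by 2.22 in control (adjusted p = 3.31e-12) and by 1.28 in FosKO (adjusted p = 2e-08) at 2 h.

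The difference in the LPS change of Met was -0.94 (SE 0.18, adjusted p = 0.00106), in a comparison where 7.70% of tested genes were called lower. It held under all 23 alternatives, with values from -1.16 to -0.81. At 0, 0.5 and 1 h Met differed between the genotypes by 0.28, 0.20 and -0.11 (adjusted p = 0.0906, 0.226 and 0.547), and at 2 h by -0.65 (adjusted p = 0.000275). The difference in the change of Met at 1 h was -0.40 (95% interval -0.77 to -0.020, adjusted p = 0.601).

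**Figure D4:**
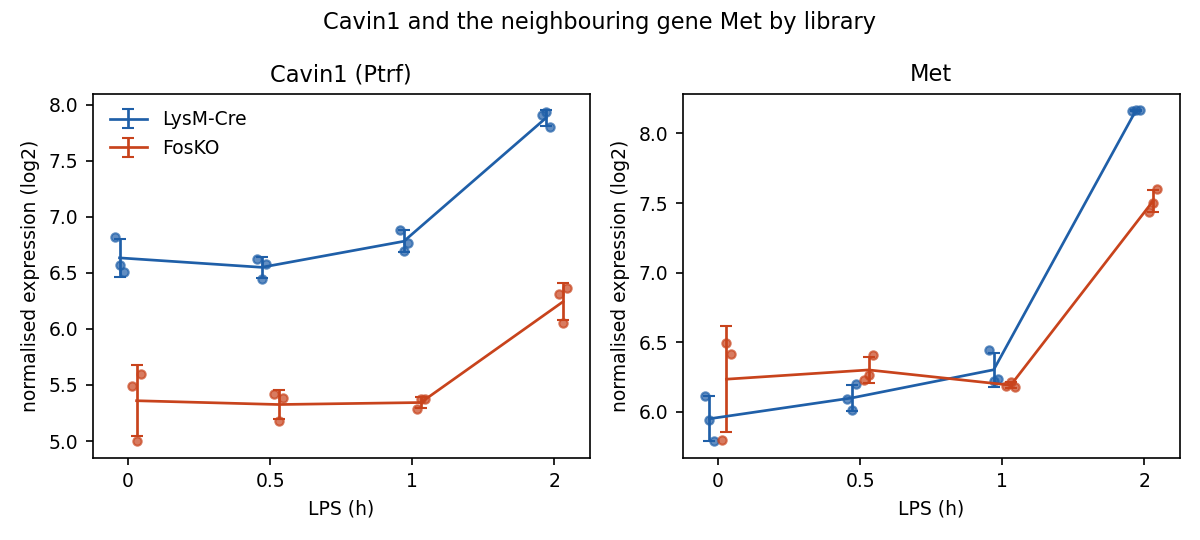
Normalised log2 expression of Cavin1 (listed as Ptrf, left) and Met (right) against hours of LPS (the 4 times evenly spaced), in LysM-Cre (blue) and FosKO (red) BMDMs. Points are single libraries (3 per group), lines join group means and bars are SDs. Cavin1 is lower in FosKO at every time, whereas Met overlaps at 0 h and separates at 2 h, at a mean of 8.16 against 7.51.

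The other 4 neighbours rose by similar amounts in both genotypes. Tfec, which encodes a macrophage transcription factor of the MiT family, rose by 2.67 in control and 2.70 in FosKO, with a difference in change of 0.02 (95% interval -0.13 to 0.18). St7 rose by 1.33 and 1.29, with a difference in change of -0.04 (-0.25 to 0.17). Tes, which encodes a focal adhesion protein, rose by 0.65 and 0.62 and was lower in FosKO at all 4 times, by -0.13, -0.18, -0.21 and -0.16 (adjusted p from 0.000341 to 0.0193). The Tes call at 0 h was lost in 3 of 16 alternatives, among them leaving out control replicate 1 or FosKO replicate 2, at -0.11 and -0.08. Capza2, an actin capping subunit, was higher in FosKO by 0.23, 0.31, 0.16 and 0.18 at the 4 times, and under quantile normalisation its 2 h value turned to -0.024 and its 1 h call was lost (0.044).

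**Figure D5:**
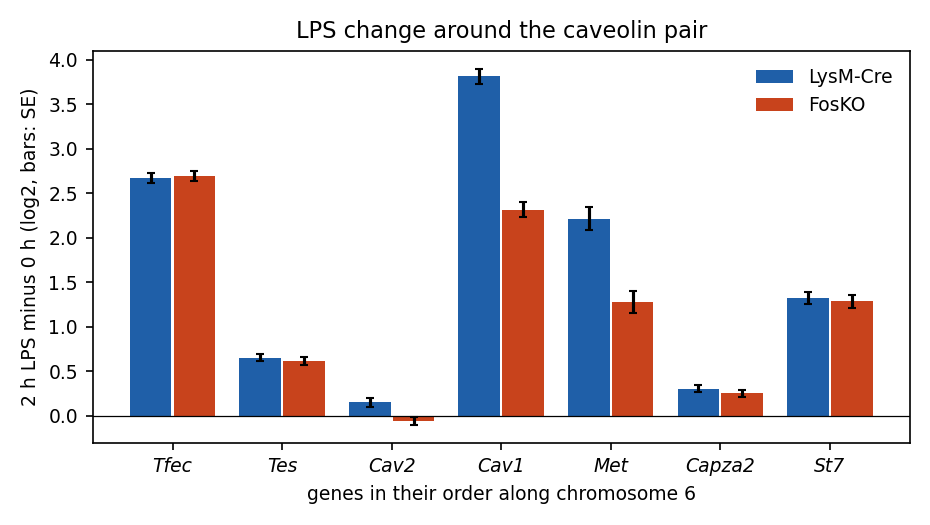
Change after 2 h of LPS against 0 h (log2, vertical axis) for Cav1, Cav2 and the 5 tested genes within 1 Mb, in their order along chromosome 6, in LysM-Cre (blue) and FosKO (red) BMDMs. Bars are differences of means of 3 libraries with SEs from the limma fit. Cav1 (3.82 against 2.32) and Met (2.22 against 1.28) rise less in FosKO, Tfec (2.67 against 2.70) rises alike in both, and Cav2 stays near 0.

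The genes whose pattern over all 24 libraries was most like that of each caveolin were different ones. Candidates were protein-coding genes whose 8 group means spanned at least 1, of which there were 2225 for Cav1 and 2226 for Cav2. For Cav1 the 5 highest Pearson correlations were those of Map2k3 (0.985), the MAP kinase kinase acting on p38, Oaf (0.985), Zfp697 (0.970), Adss (0.966), an enzyme of AMP synthesis, and Pdpn (0.965), the membrane glycoprotein podoplanin. Of these Oaf had the widest changes, with an LPS change at 2 h of 3.17 in control and 1.89 in FosKO and a genotype difference at 2 h of -1.62. Map2k3 changed by 0.95 and 0.62, and Pdpn by 1.17 and 0.74.

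For Cav2 the 5 were Folr2 (0.975), a folate receptor of macrophages, Emp2 (0.974), a tetraspan membrane protein, Slc24a3 (0.973), a cation exchanger, Ptprn (0.973) and Cd109 (0.971), a cell surface protein anchored by lipid. Folr2 was lower in FosKO by -2.03 at 0 h and -2.02 at 2 h, and changed by 0.14 with 2 h of LPS in each genotype. Emp2 was lower by -1.22 and -1.09, and Cd109 by -0.68 and -1.01. The Cav1-like genes thus combined an LPS rise with a lower FosKO level, and the Cav2-like genes had the genotype difference with little LPS change. Genes were picked for likeness over the same libraries, so these values are a description with no test.

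Markers of macrophages and of the other cells that could hold caveolins were read in the same libraries. All 8 macrophage markers listed were tested, with Csf1r between 14.95 and 15.28 and Cd68 between 15.05 and 15.38, and their summed level ran from 17.17 to 17.59 over all libraries. At 2 h 4 of the 8 were higher in FosKO, beside 24.4% called higher among all tested genes. These were the efferocytosis receptor Mertk by 1.65 (adjusted p = 6.21e-14), Fcgr1 by 0.73 (adjusted p = 6.47e-07), Cd68 by 0.17 (adjusted p = 0.0007) and the LPS co-receptor Cd14 by 0.14 (adjusted p = 0.0339). The Cd14 call was lost in 5 of 16 alternatives, among them leaving out replicate 1 or 2 of control or replicate 1 or 3 of FosKO at that time (0.12 to 0.15). Cd14 turned to -0.12 and Cd68 to -0.051 under quantile normalisation. At 0 h 4 of the 8 were higher and 4 lower, beside 35.4% of all tested genes called and 15.9% called lower. The lower ones, named here after their values were seen, were Cd14 by -0.22, Itgam by -0.19, Adgre1 by -0.15 and Csf1r by -0.14 (adjusted p = 0.00327, 0.000168, 0.0211 and 0.0106). Itgam was also lower at 0.5 h by -0.25 and at 1 h by -0.18 (adjusted p = 8.44e-06 and 0.000308), and Adgre1 at 1 h by -0.13 (adjusted p = 0.0482). At 0.5 and 1 h 4 and 3 of the 8 were higher, and 1 and 2 were lower. Of all tested genes, 40.9% and 33.9% were called in either direction at these times, and 19.7% and 15.9% were called lower. Csf1r and Cd68, as defining markers, were present throughout.

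Of 10 fibroblast or stromal markers 9 were in the table. Dcn lay between -1.40 and -1.26, Pdgfra between -0.57 and -0.23 and Thy1 between -0.86 and -0.61, close to the floor in every library. Over all times, the summed level of the list ran from 5.48 to 6.53 in control libraries and from 5.49 to 6.56 in FosKO libraries. At 0 h it was 5.74 to 5.89 in control and 5.52 to 5.63 in FosKO, which do not overlap, while at each later time the ranges overlapped. The median difference of the 6 tested members was -0.21, -0.0036, -0.26 and 0.06 at 0, 0.5, 1 and 2 h. Neither the sums nor the medians were tested. At 2 h 1 of 6 tested members was lower in FosKO (Col3a1, -0.53, adjusted p = 0.0271) and 1 higher (Postn, 0.45, adjusted p = 0.0293), beside 20.3% and 24.4% of all tested genes, but of the 6 libraries of 2 h left out in turn, the Col3a1 call was kept only without control replicate 1 (-0.76) and the Postn call only without FosKO replicate 3 (0.53). Without any one of the other 5, Col3a1 was at -0.55 to -0.34 and Postn at 0.37 to 0.47. Each of the Col3a1 and Postn calls was lost in 6 of 15 alternatives. Pdgfrb of the same list rose at 2 h of LPS, by 1.91 in control and 2.26 in FosKO (adjusted p = 8.04e-11 and 4.63e-12), and its genotype difference at 2 h was 0.14 (adjusted p = 0.422).

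Of 8 endothelial markers 7 were in the table. Emcn was between -1.86 and -1.82 and Tek between -1.05 and -0.85, near the floor, while Vwf (11.12 to 11.86) and Kdr (8.25 to 9.98) were not. At 2 h 3 of 5 tested members were higher in FosKO, beside 24.4% of all tested genes. Kdr was higher in FosKO by 0.71, Vwf by 0.49 and Cdh5 by 0.43 (adjusted p = 0.000546, 7.36e-05 and 0.0371). Over all times, the summed level of the list was 11.35 to 11.62 in control libraries and 11.63 to 12.10 in FosKO libraries. The Cdh5 call at 2 h was lost in 5 of 16 alternatives, among them leaving out any one of replicates 1 and 2 of either genotype at that time, at 0.33 to 0.42. Pecam1 and Egfl7 differed at 2 h by -0.18 and 0.09 (adjusted p = 0.303 and 0.683), and at 1 h Cdh5 differed by -0.16 (adjusted p = 0.477). The adipocyte markers Adipoq and Plin1 were at the floor, between -2.22 and -2.19, in all libraries.

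Of 7 neutrophil markers, 6 were in the table and 3 tested. All 3 were lower in FosKO at 2 h, as the caveolins were, beside 20.3% of all tested genes. The summed level of the 6 markers in the table was 6.81 to 7.18 in control libraries at 2 h and 6.08 to 6.27 in FosKO. At 0 h it was 6.14 to 6.49 against 5.54 to 5.78, and the ranges did not overlap at 0.5 or 1 h either. S100a9 was lower in FosKO at 2 h by -1.07, Ngp by -1.04 and S100a8 by -0.60 (adjusted p = 3.43e-06, 6.84e-05 and 0.00174). At 0, 0.5 and 1 h 3, 2 and 3 of the 3 were lower too, beside 15.9%, 19.7% and 15.9% of all tested genes, with median differences of -0.81, -0.65 and -1.02. The S100a8 call was lost in 2 of 16 alternatives at 0 h and in 3 of 16 at 1 h, and the Ngp call in 1 of 16 at 0.5 h. The defining markers Ly6g and Elane were at the floor, between -2.22 and -2.20, in every library. Of 5 dendritic cell markers, 3 were tested and 1, Zbtb46, was lower in FosKO at 2 h, beside 20.3% of all tested genes. Its difference was -0.96 at 2 h (adjusted p = 0.000121), and -0.11, 0.06 and -0.03 at 0, 0.5 and 1 h, not called. Zbtb46 also rose with 2 h of LPS, by 2.24 in control and 1.39 in FosKO. The summed level of the list at 2 h was between 6.82 and 6.96 in control and between 6.46 and 6.51 in FosKO. Xcr1 and Dpp4 differed at 2 h by 0.04 and 0.14 (adjusted p = 0.872 and 0.409). Xcr1 was higher at 1 h by 0.42 (adjusted p = 0.0443), and Cd209a lay near the floor at -1.98 to -1.94. The part of these marker levels in the caveolin values was not tested.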

How the data were processed

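RNA sequencing values of 24 BMDM libraries in 8 groups of 3 were used. According to the study's methods and the submitters' processing notes, the authors mapped reads with STAR 2.5.2a, counted them with RSEM 1.2.31 and used DESeq2 (1.16.1 in the notes) on GRCm38. They deposited normalised log2 values for 24273 genes, from -2.22 to 19.39. Their exact transformation and the annotation behind the Ensembl identifiers are not given in the sources used here. No read totals could be recovered, so no counting interval is given.

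From these values, one limma fit (3.58.1, R 4.3.3) of 8 group means was made over all 24 libraries with empirical Bayes and a trend on the mean. Genes entered with a linear value (2 raised to the log2 value) of 5 or more in 3 or more libraries, which left 13901. P-values were adjusted over all of them by Benjamini-Hochberg and called under 0.05, for 17 contrasts. With 3 libraries against 3 an exact permutation test cannot give a two-sided p below 0.1. The fit was tested on simulated data, and the outcome of that is not reported here.

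One further macrophage marker was left out of its list and is not reported here. The difference between genotypes in the LPS change of Cav2, planned as a test, is given without one because it is built from differences that chose the gene. The members and all gene lists were chosen with earlier results of these data known. Named genes are Cav1, Cav2, Fos, all tested members of the coat list and of the neighbours, up to 4 members of each other list with the largest called difference at 2 h, and the 5 genes most like each caveolin. Alternatives were other filters, scalings, a pseudocount of 1, no variance trend, only the groups compared, replicate blocks, 18S class, and leaving out each library. Replicate numbers were used as a block only in alternatives.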

Additional observations from a re-analysis of the deposited data

Results flagged for a closer look

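Among 30 named genes at 3 times (90 tests), 9 differences between the genotypes in the LPS change passed the interaction test of the limma fit, 8 of them at 2 h, where 15.0% of all tested genes were called. Src, Stom, Mertk, Cd14 and Zbtb46 were named for a called genotype difference at 2 h, which is part of the 2 h value tested here. That choice raises the count, so it cannot be compared with the 15.0%. Each is given as FosKO change minus LysM-Cre change on the log2 scale. For Fos, the targeted gene, it was -2.26 at 0.5 h and 1.80 at 2 h. For Met at 2 h it was -0.94 and for Src at 2 h -0.86. For Ehd4 at 2 h it was 0.30. For the raft scaffold Stom at 2 h it was 0.16 (adjusted p = 0.0267). Among the markers, it was 0.68 for Mertk, 0.36 for Cd14 (adjusted p = 0.00233) and -0.85 for Zbtb46 at 2 h. Itgam, not among the 30, was also called at 2 h (0.15, adjusted p = 0.0423). The calls of Met, Ehd4, Src, Mertk and Cd14 held under all 23 alternatives. That of Stom was lost in 7 of 23, 5 of them single libraries left out (replicate 1 of either genotype at 0 h, control replicates 2 and 3 and FosKO replicate 1 at 2 h, with values of 0.13 to 0.16), and the others quantile normalisation (0.062) and the use of high 18S libraries alone (0.16). That of Zbtb46 was lost in 3, without FosKO replicate 2 of 0 h, control replicate 3 of 2 h or FosKO replicate 2 of 2 h (-0.81 to -0.76). Cav1 and Cav2, chosen by their genotype differences, are not among these tests.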

How the results depend on the processing

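The genotype differences of Cav1 and Cav2 kept their direction under every alternative run. Quantile normalisation moved Cav2 at 0 h to -0.65, the Cav1 LPS change at 1 h to 2.29 in LysM-Cre and 1.32 in FosKO and at 2 h to 2.45 in FosKO, and the count of called coat genes at 0.5 h from 2 to 4. It took the Cav2 LPS change in LysM-Cre to 0.018 at 1 h and -0.043 at 2 h, in FosKO to -0.19 at 0.5 h and -0.24 at 2 h (both then called). With no filter the 0.13 of Cav2 at 1 h in LysM-Cre was not called. With 18S class as a term these Cav2 values were 0.079 at 1 h in LysM-Cre (not called) and -0.17 at 0.5 h in FosKO (called), and in high 18S libraries 0.079 and -0.18, with Cav1 at 1 h at -1.86 and its difference in change at -0.91.

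Same-numbered libraries of 1 genotype correlated in their deviations from the group means at over 0.1 in 12 of 36 pairs, and those of different numbers in 4 of 72. Across genotypes the counts were 6 of 48 for the same number and 18 of 96 for different numbers. The labels do not say that a number marks a shared culture. With a replicate block within genotype the Cav2 change at 0.5 h in FosKO, -0.14, was called (adjusted p = 0.00103), and a replicate block over all groups changed none of 30 results. Leaving out 1 library gave 0.11 to 0.16 for the Cav2 change at 1 h in LysM-Cre, -0.053 to 0.031 at 1 h and -0.18 to -0.091 at 0.5 h in FosKO (called without FosKO replicate 1 of 0.5 h).

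Of 144 called differences of the named genes, 99 held under every alternative. This tally leaves out Cav1, Cav2, Fos and the genes most like each caveolin. Of the 2416 values in it, 127 lost the call and 18 reversed, and all of the 18 were under quantile normalisation. Those were Dnm2 and Capza2 between genotypes (-0.013 at 0 h and -0.011 at 2 h for Dnm2, -0.024 at 2 h for Capza2) with Cd68 (-0.051 at 2 h) and Cd14 (-0.12 at 2 h), then the LPS changes at 1 and 2 h of Dnm2 (-0.071 and -0.18 in LysM-Cre, -0.035 and -0.18 in FosKO), Pacsin2 (-0.019 and -0.025, -0.033 and -0.10) and Capza2 (-0.079 and -0.033 in LysM-Cre, -0.19 at 2 h in FosKO), and in FosKO Stom at 1 h (-0.087) and Ehd4 at 2 h (-0.31). The cause was not tested. Depth is unknown, and a regularised log would understate differences of low genes.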
